A study of Mus musculus with 12 samples.

Results

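The genes described here make cholesterol or control its level. They are 28 mouse genes: 20 encode enzymes of the mevalonate and sterol pathway, and 8 encode sterol sensors, transcription factors and proteins that move, store or export cholesterol. Members were taken from that function, and every probe set annotated to exactly 1 of them was read on its own, because probe sets of Lss were known to differ from each other. Of the 28 genes, 26 had at least 1 such probe set, out of 18193 genes named this way on the array. No probe set was annotated to Acat2 or Soat1 alone. The 26 genes had 58 probe sets, and 52 of them, covering all 26 genes, were bright enough to test (38 of enzymes and 14 of control genes).

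The RNA came from whole mouse testes taken on postnatal day 7 and was read on Affymetrix arrays, which measure transcripts with sets of short probes. Of the 12 arrays, 4 were from wild type mice, 4 from Sohlh1 knockout mice and 4 from Sohlh2 knockout mice, both knockouts being homozygous. All animals shared a background labelled C57BL/6, 129S5, SvEvBrd hybrid, and each array held RNA pooled from 3 testes of 3 animals, so each group stands for 12 animals. Sohlh1 and Sohlh2 are germ-cell transcription factors of the basic helix-loop-helix family, and the comparisons ask which transcripts depend on each of them. The testes held somatic cells as well as germ cells. In such bulk tissue, fewer cells of a type and less RNA per cell cannot be told apart.

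Cholesterol synthesis starts from acetyl-CoA, passes through mevalonate and the isoprenoid units that Mvd and Idi1 supply, and reaches squalene, which Sqle and Lss turn into the first sterol ring, lanosterol. Later enzymes trim lanosterol to cholesterol. When membranes hold little cholesterol, the escort protein Scap carries the SREBP transcription factors (encoded by Srebf1 and Srebf2) to the Golgi, where they are cut and sent to the nucleus; Insig proteins hold them back when sterols are plentiful. In the testis, sterols serve as membrane lipid, as the source of androgens in Leydig cells and as intermediates that accumulate in germ cells.

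Promoter sequence is shown for 4 members. In both knockouts together, both tested probe sets of the enzyme Mvd and 1 of the 2 of the enzyme Lss were called lower. Of the 3 tested probe sets of Abca1, 1 was called higher, and that call was lost in many alternative fits. The other tested probe sets of Lss and Abca1 had differences of the opposite sign and no call. For Abca1 that sign went with low signals on 2 knockout arrays, described below. Hmgcs1 is an enzyme of the same pathway with no call. Each sequence runs 5′ to 3′ on the strand of the gene, from RefSeq on GRCm38.p6, and lies upstream of an annotated start site without entering the gene. The windows are Mvd at chr8:122443423-122443672 (minus strand), Lss at chr10:76531355-76531564 (plus strand), Hmgcs1 at chr13:119690101-119690350 (plus strand) and Abca1 at chr4:53159989-53160145 (minus strand). Capitals mark matches on either strand to CCAAT, to the E-box CANNTG that basic helix-loop-helix factors can bind, and to TCACNCCAC, a spelling of the sterol regulatory element bound by SREBP.
Mvd: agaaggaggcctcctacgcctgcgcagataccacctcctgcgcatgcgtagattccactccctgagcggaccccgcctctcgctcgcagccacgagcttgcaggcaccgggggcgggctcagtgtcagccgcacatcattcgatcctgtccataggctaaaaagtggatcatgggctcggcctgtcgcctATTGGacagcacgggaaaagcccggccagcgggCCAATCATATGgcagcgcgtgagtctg
Lss: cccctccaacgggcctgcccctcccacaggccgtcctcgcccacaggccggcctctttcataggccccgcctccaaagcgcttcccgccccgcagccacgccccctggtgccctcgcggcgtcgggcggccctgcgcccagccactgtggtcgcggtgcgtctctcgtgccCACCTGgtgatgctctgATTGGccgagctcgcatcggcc
Hmgcs1: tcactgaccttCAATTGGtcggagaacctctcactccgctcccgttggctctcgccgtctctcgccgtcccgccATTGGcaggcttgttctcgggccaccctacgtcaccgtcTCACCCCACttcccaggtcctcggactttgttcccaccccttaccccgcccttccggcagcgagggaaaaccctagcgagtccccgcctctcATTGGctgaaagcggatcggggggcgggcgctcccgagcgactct
Abca1: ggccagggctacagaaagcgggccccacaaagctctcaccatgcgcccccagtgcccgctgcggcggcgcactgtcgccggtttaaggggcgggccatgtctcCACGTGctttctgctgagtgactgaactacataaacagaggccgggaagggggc

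Positions count back from the annotated start site, where the last base before it is -1. The Mvd and Hmgcs1 sequences end at -1. The printed Lss and Abca1 sequences end at -41 and -94, because the 40 and 93 bases nearest that start site lie inside the gene and were left out. Mvd had an E-box, CATATG, at -22, which followed the CCAAT at -27. Lss had an E-box, CACCTG, at -79 and an inverted CCAAT at -62. Hmgcs1 had the only TCACNCCAC match among the members, TCACCCCAC at -137, with 3 inverted CCAAT boxes and an E-box at -239 that overlaps the first of them. Abca1 had an E-box, CACGTG, at -147 and no CCAAT.

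RefSeq windows of 250 bases upstream of the start were found for 24 of the 28 members, 32 windows in all, with none for Fdps, Fdft1, Sqle and Stard4. CANNTG was in 22 of the 32 windows (68.8%), beside 66.2% of all 32851 windows of that length. CCAAT was also in 22 (68.8%), beside 33.8% of all windows, and GGGCGG, the GC box, in 24 (75.0%), beside 32.7%. TCACNCCAC was in 1 window (3.13%), beside 1.05%. The median content of G and C was 62.0% in members' windows and 52.4% in all. These shares describe letters in a window and not binding.

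In the mean of both knockouts against wild type, 4 of the 52 tested member probe sets were lower at an adjusted p under 0.05 (limma, Benjamini-Hochberg over all 28694 tested probe sets), which is 7.69%, and 1 was higher (1.92%). Over all tested probe sets 2.13% were lower and 1.35% higher. The 4 lower probe sets were both of Mvd, which makes isopentenyl diphosphate, 1 of Lss, which closes the sterol ring, and 1 of Stard4, a cytosolic carrier of cholesterol. The higher one was of Abca1, which exports cholesterol from cells. The other 22 of the 26 genes had no call in any comparison. The pooled count of 5 called probe sets became 2 without wild type 3 or wild type 5, and 3 without wild type 6 or the arrays labelled Sohlh1 knockout 4 or Sohlh2 knockout 4.

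In the Sohlh1 knockout 4 member probe sets were lower (7.69%) and 0 higher, against 1.38% lower and 0.707% higher among all tested. They were both probe sets of Mvd, 1 of Lss and 1 of Stard4. The count ranged from 1 to 5 when single arrays were left out. It was 1 without wild type 5, wild type 6, or the arrays labelled Sohlh1 knockout 2, 3 or 5, and 2 without wild type 3 or the arrays labelled Sohlh1 knockout 4 or Sohlh2 knockout 5.

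In the Sohlh2 knockout 2 were lower (3.85%) and 0 higher, against 0.944% lower and 0.606% higher among all tested. They were Mvd 1417303_at and Stard4 1429239_a_at. The count was 0 without wild type 5, wild type 6 or the array labelled Sohlh2 knockout 4. A single call, 1, was left without wild type 4 or the arrays labelled Sohlh1 knockout 3, 4 or 5 or Sohlh2 knockout 5. Both knockout comparisons share the wild-type arrays.

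The median log2 difference of the 52 probe sets was -0.10 in both knockouts together, -0.10 in the Sohlh1 knockout and -0.08 in the Sohlh2 knockout, while the median over all tested probe sets lay within 0.01 of 0 in each comparison. Single arrays moved these medians. With Sohlh1 knockout 2 (by label) left out, the Sohlh1 knockout median was -0.03, and with wild type 6 left out it was -0.07. With Sohlh2 knockout 1 left out, the Sohlh2 knockout median was -0.02, and with Sohlh2 knockout 5 left out it was -0.12. The pooled median was -0.05 with Sohlh1 knockout 2 and Sohlh2 knockout 1 both left out, and also -0.05 with array weights. Of the 52, 35 lay below 0 in the Sohlh1 knockout, 32 in the Sohlh2 knockout and 35 in both together. The plot of log2 differences for every tested member shows most intervals crossing 0.

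**Figure D1:**
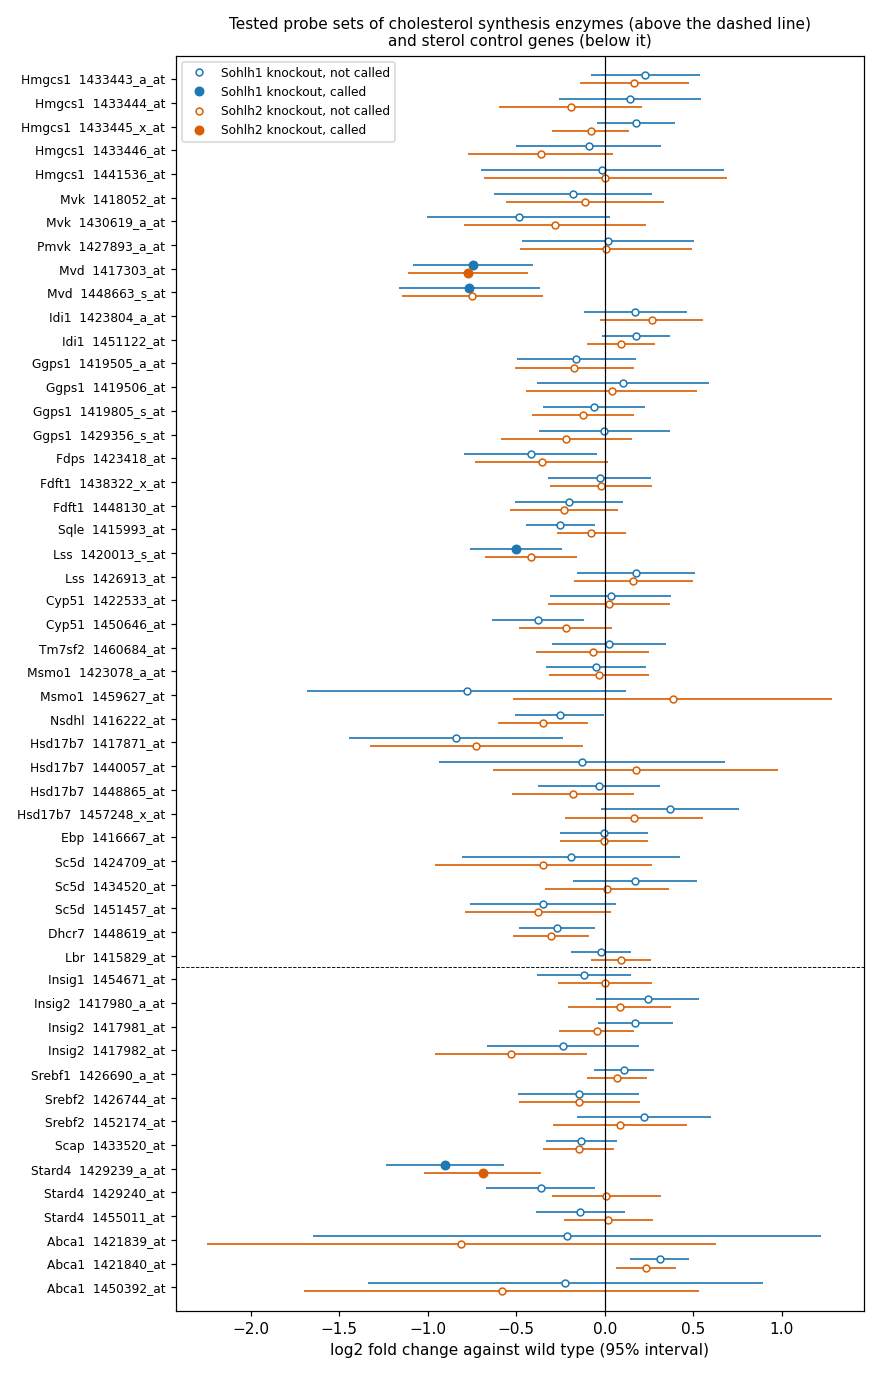
Log2 fold change against wild type (horizontal axis, 95% intervals from limma) of the 52 tested member probe sets, in the Sohlh1 knockout (blue) and the Sohlh2 knockout (orange), with filled points for an adjusted p under 0.05. The filled points are Mvd 1417303_at and Stard4 1429239_a_at in both knockouts, and Mvd 1448663_s_at and Lss 1420013_s_at in the Sohlh1 knockout.

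Before the values of single genes, 3 arrays need a remark. Sohlh1 signal was 1125 to 1233 in wild type and 50.2 to 104 on the arrays labelled Sohlh1 knockout 2, 3 and 4, and 595 on the fourth array of that label, Sohlh1 knockout 5, where Sohlh2 read 94.4. Sohlh2 signal was 885 to 1200 in wild type and 73.2 to 157 on Sohlh2 knockout 3-1, 4 and 5 by label, and 1847 on the fourth, Sohlh2 knockout 1, where Sohlh1 read 126. The targeted genes on these 2 arrays thus go against their labels, so the comparison of both knockouts together is given first for each gene. Exchanging the 2 knockout labels of these arrays would leave its log2 difference as it is, but not its SE or p, and no fit with exchanged labels was made.

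The ratio of 3′ to 5′ control signal, which rises when RNA is shorter, was 0.744 to 0.818 for Gapdh on 10 arrays, 1.17 on the array labelled Sohlh1 knockout 2 and 1.63 on the array labelled Sohlh2 knockout 1. For beta-actin it was 1.30 to 1.45 on the same 10 arrays, then 2.10 and 3.56. Array medians of signal ran from 76.6 to 90.7. The number of arrays limits the precision, and each p-value reflects the spread among pooled samples, not among single animals.

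Mvd, mevalonate diphosphate decarboxylase, carries out the last step from mevalonate to isopentenyl diphosphate. Probe set 1417303_at gave signals of 625, 546, 710 and 762 on wild-type arrays 3 to 6. It gave 295, 415, 436 and 416 on the arrays labelled Sohlh1 knockout 2 to 5, and 307, 463, 369 and 387 on those labelled Sohlh2 knockout 1, 3-1, 4 and 5. All 8 knockout arrays lay below all 4 wild-type arrays. The group means were 661 ± 95.2 (SD, n = 4), 390 ± 64.1 and 382 ± 64.3, and the knockout mean was 58.4% of wild type.

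Mvd 1417303_at fell by 0.76 on the log2 scale in both knockouts together (SE 0.14, 95% interval -1.05 to -0.46, limma adjusted p = 0.0071). The log2 difference was -0.74 in the Sohlh1 knockout (SE 0.16, adjusted p = 0.0268) and -0.77 in the Sohlh2 knockout (SE 0.16, adjusted p = 0.0243). The pooled fall kept an adjusted p under 0.05 in all 28 alternative fits, the highest being 0.0401. With the 2 arrays of high 3′ to 5′ ratio left out it was -0.65 (adjusted p = 0.00277), -0.73 without the 2 that go against their labels, and -0.64 without all 3.

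Each knockout alone was less firm for this probe set. The Sohlh1 knockout call was lost without wild type 5 or 6 or the arrays labelled Sohlh1 knockout 2, 3 or 5 (adjusted p of 0.0503 to 0.100), with eBayes without trend (0.0557) and without all 3 arrays remarked on (0.0602). The Sohlh2 knockout call was lost without wild type 5 or 6 or the arrays labelled Sohlh2 knockout 4 or 5 (adjusted p of 0.0551 to 0.0913). It was also lost with eBayes without trend (0.0518). A block for replicate number, with 3-1 kept apart or read as 3, lost the call in each knockout. In the Sohlh2 knockout the adjusted p with a block reached 0.109.

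The other Mvd probe set, 1448663_s_at, gave 677, 469, 578 and 476 in wild type. It gave 259, 332, 307 and 368 in the Sohlh1 knockout and 357, 416, 219 and 313 in the Sohlh2 knockout. Again no knockout array reached the lowest wild-type value. It fell by 0.76 in both knockouts together (SE 0.16, adjusted p = 0.0181), by nearly the same log2 amount as 1417303_at. That call was lost without wild type 3 (adjusted p = 0.0601) or wild type 5 (adjusted p = 0.0746). The Sohlh1 knockout alone gave -0.77 (adjusted p = 0.0483), and leaving out any of the 4 wild-type arrays, any of the 4 Sohlh1 knockout arrays or the array labelled Sohlh2 knockout 5 took it past the threshold, to between 0.0673 and 0.138. So did 7 other settings, with 0.0526 to 0.103: no log offset, quantile normalization, median centring, no filter, eBayes without trend, and the fits that leave out the high-ratio arrays or all 3 arrays remarked on. The Sohlh2 knockout alone gave -0.75 (SE 0.19, adjusted p = 0.0627), which did not pass; the adjusted p was 0.0495 when the array labelled Sohlh2 knockout 1 was left out and 0.0466 when Sohlh2 knockout 3-1 was.

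The steps around Mvd were not called. Hmgcs1, an enzyme that acts before mevalonate is made, had 5 tested probe sets with pooled log2 differences of -0.23 to 0.20. Its 1433443_a_at gave 8319 to 10028 in wild type and 8926 to 14220 in the knockouts, with the 2 highest values, 14220 and 13409, on the 2 arrays of high 3′ to 5′ ratio. Mvk and Pmvk, the kinases between mevalonate and the Mvd step, had log2 differences of -0.15 and -0.38 (Mvk) and 0.01 (Pmvk). Idi1, which isomerises the product of Mvd, had 0.22 and 0.13, with adjusted p of 0.365 and 0.401.

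Downstream, Fdps, which builds farnesyl diphosphate, gave 4256 to 5713 in wild type and 2707 to 4875 in the knockouts, a log2 difference of -0.39 (SE 0.15, adjusted p = 0.199). Ggps1, on the branch to geranylgeranyl diphosphate, had 4 probe sets between -0.17 and 0.07. Fdft1, the squalene synthase, had -0.03 and -0.22. Neither the genes before Mvd nor those just after it passed the test in any comparison.

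**Figure D2:**
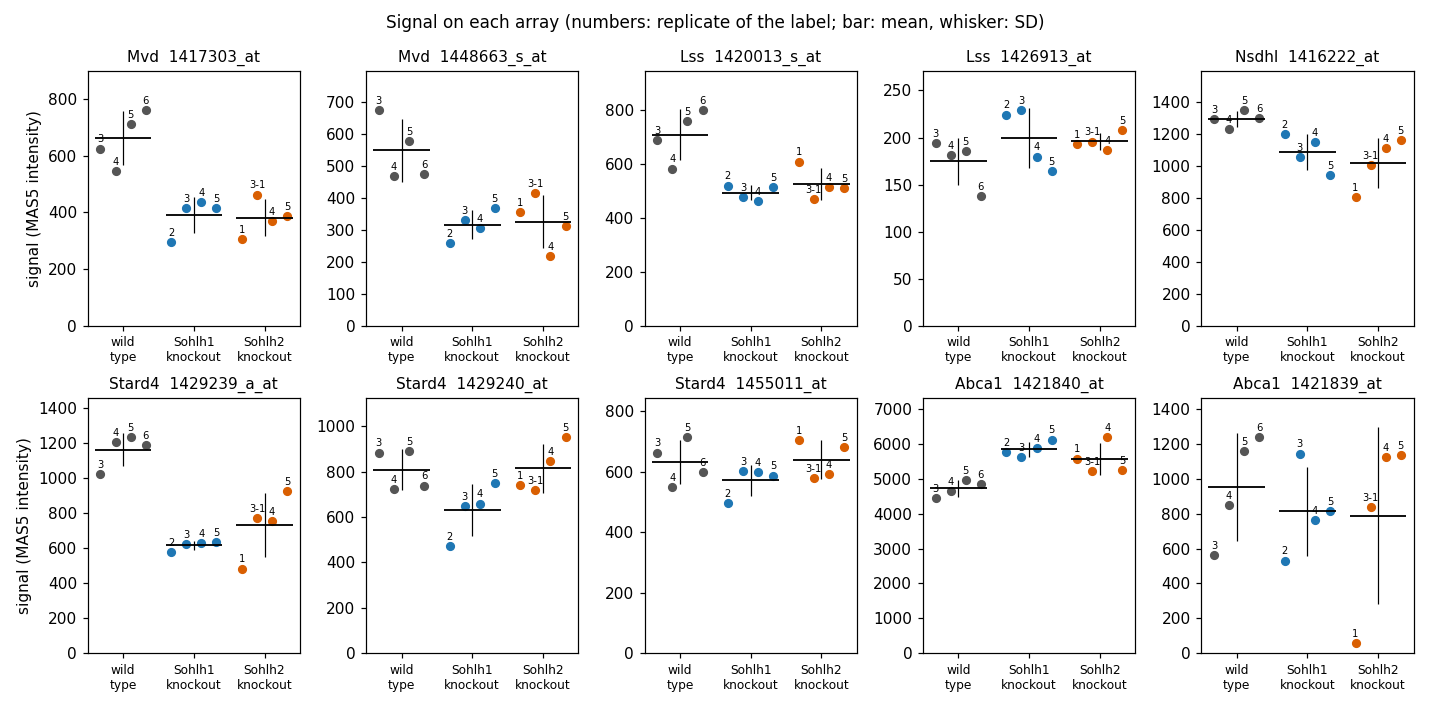
Signal (vertical axes, linear MAS5 intensity starting at 0) on each of the 12 arrays for 10 probe sets of Mvd, Lss, Nsdhl, Stard4 and Abca1, with group means as bars, SD as whiskers and the replicate label beside each point. Both Mvd panels show 8 knockout arrays below all wild-type arrays, while the Lss and Stard4 panels differ between probe sets of the same gene.

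Lss, lanosterol synthase, folds oxidosqualene into lanosterol. Probe set 1420013_s_at gave 691, 584, 762 and 803 in wild type. It gave 521, 478, 465 and 515 in the Sohlh1 knockout and 610, 470, 514 and 511 in the Sohlh2 knockout. The groups overlapped in 1 place, since the array labelled Sohlh2 knockout 1 (610) lay above wild type 4 (584). The means were 710 ± 95.7, 495 ± 27.6 and 526 ± 59.5 (SD, n = 4).

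Lss 1420013_s_at fell by 0.46 on the log2 scale in both knockouts together (SE 0.11, 95% interval -0.69 to -0.24, adjusted p = 0.0259) and by 0.50 in the Sohlh1 knockout (SE 0.12, adjusted p = 0.0480). In the Sohlh2 knockout the difference was -0.42 (SE 0.12, adjusted p = 0.117). The pooled call was lost without wild type 3 (0.0517), 5 (0.111) or 6 (0.116). It was also lost without the arrays labelled Sohlh1 knockout 4 (0.0517) or Sohlh2 knockout 4 (0.051). Quantile normalization (0.0558), median centring (0.061) and a block for replicate number, with 3-1 kept apart, lost it too. The Sohlh1 knockout call was lost without any of wild type 3, 5 and 6, any of the 4 Sohlh1 knockout arrays, or the arrays labelled Sohlh2 knockout 3-1, 4 and 5, with adjusted p between 0.0546 and 0.161. In all it was lost in 17 of 28 alternative fits, among them quantile normalization (0.0962), median centring (0.103), no filter (0.0681), eBayes without trend (0.0763) and the fit without all 3 arrays remarked on (0.0533). With the 2 arrays of high 3′ to 5′ ratio left out, the pooled difference was -0.51 (adjusted p = 0.00742), and without the 2 arrays that go against their labels it was also -0.51 (adjusted p = 0.0145).

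The other Lss probe sets were not called. Probe set 1426913_at gave 195, 182, 185 and 138 in wild type. It gave 224, 230, 180 and 165 in the Sohlh1 knockout and 193, 196, 187 and 208 in the Sohlh2 knockout. Here the groups overlapped widely and the pooled log2 difference was 0.17 (SE 0.14, 95% interval -0.12 to 0.46, adjusted p = 0.563). Probe set 1420014_at was too dim to test, with 4.74, 48.7, 47.5 and 14.2 in wild type, 37.1, 33.6, 39.3 and 66.7 in the Sohlh1 knockout and 25.6, 9.09, 22.9 and 22.1 in the Sohlh2 knockout.

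Within each array, the log2 ratio of Lss 1420013_s_at to 1426913_at was 1.94 ± 0.35 in wild type, 1.26 ± 0.23 in the Sohlh1 knockout and 1.36 ± 0.18 in the Sohlh2 knockout (SD, n = 4). The highest knockout value, 1.59, was below the lowest wild-type value, 1.61. This ratio describes a disagreement that was known when the probe sets were chosen, and it is no separate evidence of it. Which transcripts each probe set reads was not tested.

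Of the other enzymes that turn squalene into cholesterol, none passed the test. Nsdhl, which removes a carboxyl group during demethylation of the ring, gave 1293, 1231, 1353 and 1302 in wild type, 1198, 1055, 1152 and 942 in the Sohlh1 knockout and 808, 1006, 1112 and 1161 in the Sohlh2 knockout. Its groups did not overlap, yet the log2 difference of -0.30 (SE 0.10) had an adjusted p of 0.131. All 8 knockout arrays lay below all 4 wild-type arrays for 4 member probe sets (7.69%, beside 2.98% of all tested): both of Mvd, Nsdhl and Stard4 1429239_a_at. They lay above for 1 (1.92%, beside 2.11%), Abca1 1421840_at.

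Dhcr7, the reductase that makes cholesterol from its dehydro precursor, gave 1398 to 1687 in wild type and 1128 to 1455 in the knockouts, a log2 difference of -0.29 (SE 0.09, adjusted p = 0.0917). Hsd17b7, the sterol ketoreductase, had 4 probe sets between -0.78 and 0.27. Its lowest, 1417871_at, gave 201 ± 62.8 in wild type, 106 ± 32.2 in the Sohlh1 knockout and 116 ± 38.4 in the Sohlh2 knockout, with an adjusted p of 0.102. Cyp51, the lanosterol demethylase, had -0.30 (adjusted p = 0.155) and 0.03 on its tested probe sets.

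Sqle, the squalene epoxidase that precedes Lss, had -0.16 (adjusted p = 0.306). Msmo1, the methyl oxidase that works with Nsdhl and Hsd17b7, had -0.04 on 1423078_a_at. Its other probe set, 1459627_at, was dim, with a wild-type mean of 39.6, so no size is given for it. Sc5d, the desaturase before Dhcr7, had 3 probe sets between -0.36 and 0.09. The sterol isomerase Ebp and the sterol reductases Tm7sf2 and Lbr had 0.00, -0.02 and 0.04, with 95% intervals of -0.22 to 0.21, -0.30 to 0.25 and -0.11 to 0.18. Those intervals leave out a log2 fall of the size seen for Mvd.

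The sterol sensors and transcription factors had no call. Insig1, the retention protein whose own transcript responds to SREBP, gave 1321, 924, 979 and 1111 in wild type, 1197, 973, 903 and 907 in the Sohlh1 knockout and 1104, 1014, 1126 and 1056 in the Sohlh2 knockout. The groups overlapped, with a pooled log2 difference of -0.06 (95% interval -0.29 to 0.17, adjusted p = 0.820). Insig2, the second retention protein, had 3 probe sets between -0.38 and 0.16. Its brightest, 1417981_at, gave 948, 1056, 1074 and 870 in wild type, 1112, 1119, 1135 and 1073 in the Sohlh1 knockout and 883, 884, 1065 and 987 in the Sohlh2 knockout, a pooled difference of 0.06 (95% interval -0.12 to 0.25, adjusted p = 0.753).

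Srebf1, whose products act on fatty acid and cholesterol genes, gave 1626, 1715, 1638 and 1576 in wild type, 1837, 1733, 1647 and 1861 in the Sohlh1 knockout and 1791, 1776, 1645 and 1670 in the Sohlh2 knockout (0.09, 95% interval -0.06 to 0.24, adjusted p = 0.545). Srebf2, the main factor for cholesterol genes, gave 1448, 1408, 1662 and 1902, then 1107, 1452, 1606 and 1646, then 1080, 1627, 1424 and 1721 on its brightest probe set 1426744_at (-0.15, 95% interval -0.44 to 0.15, adjusted p = 0.630). Its lowest values, 1107 and 1080, came from the 2 arrays of high 3′ to 5′ ratio. The other Srebf2 probe set had 0.15.

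Scap, the escort of SREBP, gave 4160, 4612, 4689 and 5440 in wild type, 3898, 4371, 4603 and 4314 in the Sohlh1 knockout and 4630, 4196, 3903 and 4275 in the Sohlh2 knockout. The groups overlapped and the pooled log2 difference was -0.14 (95% interval -0.31 to 0.03, adjusted p = 0.402). For these 5 genes the arrays measured transcript only; cleavage of SREBP was not measured.

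Stard4, which moves cholesterol between membranes in the cytosol, had the member probe set with the smallest adjusted p. Probe set 1429239_a_at gave 1022, 1204, 1234 and 1187 in wild type. It gave 576, 620, 629 and 631 in the Sohlh1 knockout and 482, 768, 753 and 923 in the Sohlh2 knockout. No knockout array reached the lowest wild-type array, and the Sohlh1 knockout arrays lay close together (614 ± 25.8, SD, n = 4) while those of the Sohlh2 knockout spread more (732 ± 183).

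Stard4 1429239_a_at fell by 0.80 on the log2 scale in both knockouts together (SE 0.13, 95% interval -1.08 to -0.51, adjusted p = 0.00441) and by 0.90 in the Sohlh1 knockout (SE 0.16, adjusted p = 0.00711). Both calls held in every alternative fit, with an adjusted p of at most 0.0256 and 0.0339. In the Sohlh2 knockout it fell by 0.69 (SE 0.16, adjusted p = 0.0393). That call was lost without wild type 4, 5 or 6, the arrays labelled Sohlh1 knockout 3, 4 or 5, or the arrays labelled Sohlh2 knockout 3-1 or 4 (adjusted p of 0.0582 to 0.125). It was also lost with eBayes without trend (0.086), in a fit of only the groups compared (0.107) and with replicate number as a block (0.185). Without all 3 of the arrays remarked on, the pooled difference was -0.69 (adjusted p = 0.000916).

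The other Stard4 probe sets were not called. Probe set 1429240_at gave 885, 723, 891 and 739 in wild type, 474, 647, 660 and 749 in the Sohlh1 knockout and 741, 719, 848 and 953 in the Sohlh2 knockout (pooled log2 difference -0.18, adjusted p = 0.506). Probe set 1455011_at gave 549 to 715 in wild type and 496 to 705 in the knockouts (-0.06, adjusted p = 0.809). Within arrays, the log2 ratio of 1429239_a_at to 1455011_at was 0.87 ± 0.22 in wild type, 0.10 ± 0.07 in the Sohlh1 knockout and 0.16 ± 0.46 in the Sohlh2 knockout, with no overlap between knockout and wild type. Against 1429240_at the same ratio did overlap. Probe set 1429239_a_at is the one called in these same data, so the ratios are no separate evidence of its fall. On 1429240_at, 3 of the 4 Sohlh1 knockout arrays lay below every wild-type array, while 3 of the 4 Sohlh2 knockout arrays lay within or above the wild-type range. As for Lss, 1 probe set of Stard4 passed the test and the others did not.

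Abca1, the transporter that loads cholesterol onto apolipoproteins, went the other way on 1 of its 3 tested probe sets. Probe set 1421840_at gave 4438, 4645, 4964 and 4857 in wild type. It gave 5775, 5617, 5894 and 6130 in the Sohlh1 knockout and 5583, 5216, 6204 and 5264 in the Sohlh2 knockout. All 8 knockout arrays lay above all wild-type arrays, and the means were 4726 ± 233, 5854 ± 216 and 5567 ± 455 (SD, n = 4).

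Abca1 1421840_at rose by 0.27 on the log2 scale in both knockouts together (SE 0.07, 95% interval 0.12 to 0.42, adjusted p = 0.0425). Neither knockout alone passed, at 0.31 (adjusted p = 0.0614) and 0.23 (adjusted p = 0.193). The pooled call was lost in 17 of 28 alternative fits. These included leaving out any of the 4 wild-type arrays, any of the 4 Sohlh1 knockout arrays, or the arrays labelled Sohlh2 knockout 4 or 5, with adjusted p between 0.0503 and 0.135. It was also lost without the 2 arrays that go against their labels (0.0621) and without all 3 arrays remarked on (0.0569). Quantile normalization (0.0544), no filter (0.0700) and eBayes without trend (0.110) lost it as well. So did a block for replicate number, with 3-1 kept apart or read as 3.

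The other Abca1 probe sets, 1421839_at and 1450392_at, had pooled differences of -0.51 (SE 0.58) and -0.40 (SE 0.45), with adjusted p of 0.698 and 0.694. On 1421839_at wild type gave 564, 852, 1159 and 1242, the Sohlh1 knockout 532, 1146, 762 and 815, and the Sohlh2 knockout 55.6, 837, 1127 and 1139. The low value, 55.6, came from the array labelled Sohlh2 knockout 1, which had the highest 3′ to 5′ ratio. On the 2 arrays of high ratio 1421839_at was lower than on the other 6 knockout arrays by a log2 difference of -2.31, and 1450392_at by -1.84, while 1421840_at differed by -0.01. Most of this came from the array labelled Sohlh2 knockout 1, at -3.80 and -2.74, beside -0.83 and -0.94 on the array labelled Sohlh1 knockout 2. On the other 6 knockout arrays the mean signals of 1421839_at and 1450392_at were 971 and 371, beside 954 and 371 in wild type. The negative pooled differences of these 2 probe sets thus went with the 2 arrays of high ratio. Why was not tested.

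Those 2 arrays were set against the other 6 knockout arrays for all members. Of the 52 member probe sets, 8 were lower on them by more than 0.5 log2 (15.4%, beside 15.9% of all tested) and 2 were higher (3.85%, beside 6.13%). Mvd 1417303_at was lower on them by -0.44 and Stard4 1429239_a_at by -0.43, with -0.47 and -0.41 (Mvd) and -0.30 and -0.55 (Stard4) on the arrays labelled Sohlh1 knockout 2 and Sohlh2 knockout 1. Mvd 1448663_s_at had -0.29 and 0.15 on them, and Lss 1420013_s_at 0.08 and 0.30. The falls of Mvd and of Lss and Stard4 on these probe sets kept an adjusted p under 0.05 in the pooled comparison without them.

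Array by array, the 38 enzyme probe sets had a median log2 difference from the wild-type mean of 0.11, -0.05, 0.08 and -0.08 on the wild-type arrays themselves. It was -0.14, 0.00, -0.11 and -0.12 in the Sohlh1 knockout and -0.19, -0.09, -0.12 and -0.01 in the Sohlh2 knockout. The groups overlapped, so the enzymes as a list did not separate knockout from wild-type arrays. The median of the 14 control-gene probe sets was lowest, at -0.32, on the array labelled Sohlh1 knockout 2.

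**Figure D3:**
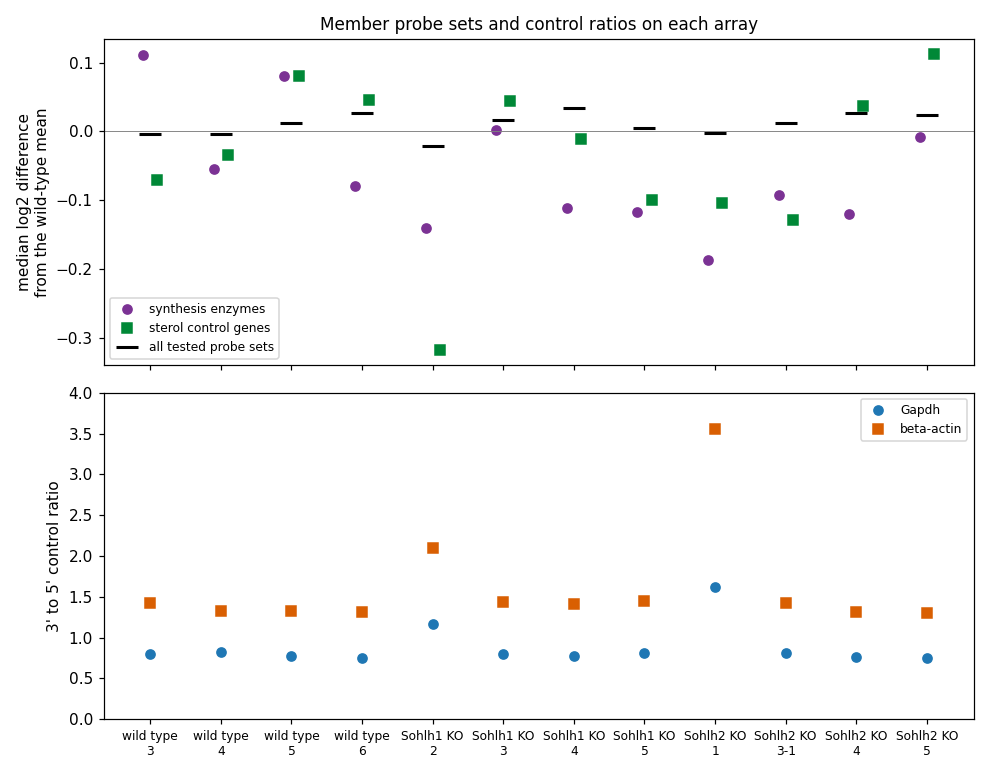
Upper panel: median log2 difference from the wild-type mean (vertical axis) of the enzyme probe sets (circles), the control-gene probe sets (squares) and all tested probe sets (bars) on each of the 12 arrays. Lower panel: 3′ to 5′ signal ratio of the Gapdh and beta-actin controls on the same arrays, highest at 1.63 and 3.56 on the array labelled Sohlh2 knockout 1.

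Pooled differences also spread among the probe sets of other genes, but no difference between probe sets was tested there. Of the 26 genes, 15 had several tested probe sets (41 in all) and 11 had 1. In 9 of the 15 the pooled differences of a gene's probe sets had different signs. Some of these signs rest on values near 0, such as 0.03 for Cyp51 1422533_at and 0.07 for Ggps1 1419506_at. The shares over all genes with several probe sets are not given. In 5 they spanned more than 0.5 log2: Hsd17b7 (1.05), Abca1 (0.78), Stard4 (0.74), Lss (0.63) and Insig2 (0.54). The Abca1 span includes the low signals of 1421839_at on the arrays of high 3′ to 5′ ratio. The Mvd probe sets, both called, spanned 0.00.

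Between the knockouts, 0 of 52 member probe sets passed the adjusted threshold in limma (0% of all 28694 as well), and 4 had an unadjusted p under 0.05, beside 2.67% of all tested. Those 4 were Msmo1 1459627_at, Stard4 1429240_at (0.37 higher), Hmgcs1 1433445_x_at (-0.26) and Insig2 1417981_at (-0.22). Msmo1 1459627_at was dim, with 7.17 to 32.4 on the Sohlh1 knockout arrays, all under the limit of 48.6 used to choose tested probe sets, and 39.1 to 75.2 on the Sohlh2 knockout arrays, so no size is given for it. For Mvd 1417303_at the difference between knockouts was -0.03, for Lss 1420013_s_at 0.08 and for Stard4 1429239_a_at 0.21. A p that misses the threshold does not show that the knockouts act alike, and 1 array of each knockout goes against its label.

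Other genes of sterol and lipid metabolism were taken from 5 lists outside the members: further sterol enzymes, sterol uptake and carriage, sensing and SREBP cleavage, isoprenoid branches, and fatty acid synthesis. They gave 63 tested probe sets of 32 genes. In limma 0 were called in any of the 4 comparisons. Over all tested probe sets 2.13% were lower and 1.35% higher in both knockouts together, so few calls would be expected among 63. At an unadjusted p under 0.05 there were 9, 6, 10 and 2 in the Sohlh1 knockout, the Sohlh2 knockout, both together and between the knockouts. Of all tested, 2.67% had such a p between the knockouts, and that share is not given for the other comparisons. The median of the 63 in both knockouts together was 0.04.

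Nearest to the threshold was 1 of the 3 tested probe sets of Lrp8, a lipoprotein receptor, with 152 ± 33.9 in wild type, 71.1 ± 18.1 in the Sohlh1 knockout and 75.9 ± 37.8 in the Sohlh2 knockout (pooled log2 difference -0.97, SE 0.26, adjusted p = 0.0602). The other Lrp8 probe sets had -0.05 (adjusted p = 0.907) and 0.30 (adjusted p = 0.654). Rabggta, a subunit of the enzyme that attaches geranylgeranyl groups to Rab proteins, had -0.40 (adjusted p = 0.0994). Mbtps1, the first protease to cut SREBP, had 0.19, -0.48 and -0.61 on its 3 probe sets (adjusted p of 0.162, 0.480 and 0.192), with unlike signs. Elovl6 and Scd2 are enzymes of fatty acid synthesis that SREBP also controls. Elovl6 had 0.33 (adjusted p = 0.216) and 0.10 (0.715), and Scd2 had 0.14 (0.234), -0.27 (0.691) and -0.44 (0.658).

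Of 9 lists of cell markers, those of differentiating spermatogonia and of germ cells held calls in both knockouts together, and the other 7 held 0. Of 14 probe sets for differentiating spermatogonia 5 were lower in both knockouts together, beside 2.13% of all tested, with a list median of -0.28. They were those of Kit (2), Dmrtb1, Crabp1 and Sohlh1 itself, a targeted gene. The rest were not called: the probe sets of Ccnd2 (-0.14 to 0.21), of Stra8 (-0.42, limma adjusted p = 0.0677) and of Sohlh2, the other targeted gene. Kit, the stem cell factor receptor, fell by 1.94 log2 on 1452514_a_at, from 1739 ± 176 to 453 ± 91.2 and 442 ± 76.6. The summed signal of that list was 31475 to 34175 in wild type, 24847 to 27049 in the Sohlh1 knockout and 24893 to 33067 in the Sohlh2 knockout.

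Of 19 germ-cell probe sets 1 was lower (Dppa3) and 1 higher (Gfra1), with sums of 43319 to 50531, 36341 to 45473 and 38814 to 47650. Of 16 Sertoli-cell probe sets 0 were called (median 0.10), with sums of 143250 to 170223, 168286 to 185556 and 158317 to 178574. Of 9 Leydig-cell probe sets 0 were called (median -0.08), with sums of 14876 to 18097, 16009 to 17710 and 14932 to 16905. The lists for endothelium, peritubular muscle, leukocytes, adipose tissue and erythroid cells had 0 calls. The part of these shifts in the falls of Mvd, Lss and Stard4 or the rise of Abca1 was not tested.

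**Figure D4:**
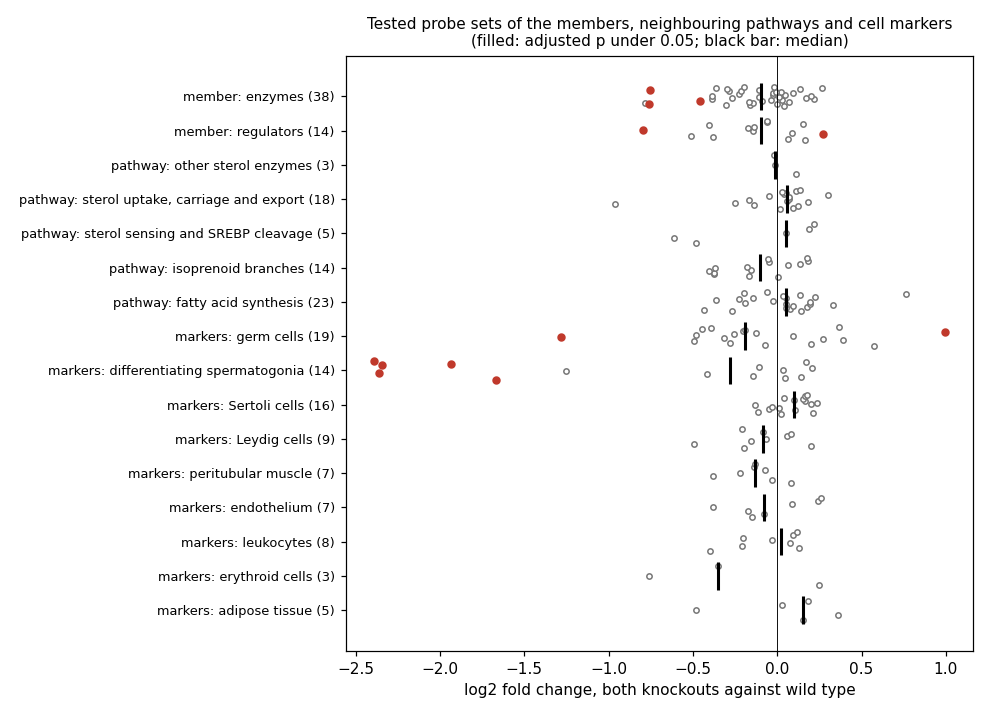
Log2 difference of both knockouts together against wild type (horizontal axis) for each tested probe set of the members, of 5 lists of related metabolism and of 9 lists of cell markers, with the number of probe sets in brackets, red points for an adjusted p under 0.05 and black bars for medians. Red points are few among the members (5 of 52), absent from the metabolism lists (0 of 63), and farthest to the left among markers of differentiating spermatogonia. Over all tested probe sets 2.13% were lower and 1.35% higher.

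Of the 58 member probe sets 6 were too dim to test: Lss 1420014_at, Fdps 1438150_at, Fdft1 1438918_at and 1438919_x_at, Cyp51 1422534_at and Scap 1442885_at. Each of those genes had another probe set that was tested. The tested member probe sets thus cover the 26 genes, but not every transcript of them.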

How the data were processed

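Whole-testis RNA, pooled from 3 animals per array, was labelled from an oligo(dT) primer, per the labels' protocols, so signals come mostly from the 3′ end of transcripts. The deposited values are signal intensity, linear and not logged. The submitters' processing notes name GCOS and MAS5, with no version given in the sources used here. With 2% trimmed off each end, the mean was 500.0 on every array. Groups come from the sample titles.

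Intensity was turned to log2(value + 14.2), the 20th percentile of all values, so differences of dim probe sets are understated. The 64 control probe sets were left out, and 28694 of the other 45037, those above 48.6 (40th percentile) on at least 4 arrays, entered the test, by limma 3.58.1 (R 4.3.3): 1 fit of 12 arrays, 3 groups, eBayes with trend, two-sided, Benjamini-Hochberg over all tested. Rose, fell and called mean an adjusted p under 0.05. SD and means are of raw signals. Steps were tested on simulated data. Figures used matplotlib 3.10.9.

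Symbols came from the platform annotation (34945 probe sets with 1 symbol, 932 several, 9160 none), of which 34741 matched RefSeq GRCm38.p6 and 0 changed. Members, lists and rules were chosen with earlier results of these data known. Values on every array are given for called members, all Lss probe sets and the brightest probe set of each sensor or SREBP gene; Nsdhl, Stard4 and Abca1 probe sets not called were added after their values were seen, and up to 4 genes of each outside list could be named. The alternatives were other offsets, normalizations, filters, variance models, probe sets, a replicate block, a 3′ to 5′ covariate, and leaving out arrays. The 12 arrays correlated at 0.930 to 0.979 and no pair was identical.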

Additional observations from a re-analysis of the deposited data

Results flagged for a closer look

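Within groups of 4 arrays, the highest or lowest value stood apart from the other 3 in 9 of 156 groups (Dixon's test at 95%); chance gives about 5%. All 9 lie on the array labelled Sohlh1 knockout 2 or the one labelled Sohlh2 knockout 1, the 2 arrays of high 3′ to 5′ ratio. On the former, Mvd 1417303_at read 295.4 beside 415 to 436 on the other 3 arrays, Fdps 1423418_at 2707 beside 4094 to 4217, and Hsd17b7 1417871_at 58.2 beside 117 to 127. Stard4 1455011_at read 496.4 there beside 587 to 602. In contrast, Fdft1 1438322_x_at was high there, at 4084 beside 2854 to 2912, as was Cyp51 1422533_at, at 404 beside 296 to 309. On the array labelled Sohlh2 knockout 1, Mvk 1430619_a_at read 121.6 beside 253 to 269, Abca1 1421839_at 55.63 beside 837 to 1139, and Abca1 1450392_at 42.84 beside 318 to 449. Of these probe sets, Mvd 1417303_at was the called one, and its pooled fall was -0.65 without both arrays.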

How the results depend on the processing

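Of 29 alternatives none reversed the direction of a called member. The count of called members in both knockouts together, 5, became 3 with quantile normalization and 2 without _x_at, _s_at and _a_at probe sets. That last setting itself leaves out the called probe sets of Lss and Stard4 and a called Mvd probe set. In no comparison was a call lost among the probe sets it kept, so its lower counts do not test the calls left out. In the Sohlh1 knockout, 4 became 2 with quantile normalization, 2 with no filter, 1 with eBayes without trend and 1 without all 3 arrays remarked on. Without those suffixes the Sohlh1 knockout count was 2: 1 lower, of Mvd, and 1 higher, of Abca1, which was not called there in the main fit. In the Sohlh2 knockout, 2 became 0 with eBayes without trend, 1 in a fit of the groups compared alone, 1 without the suffixes, and 4 each with array weights, without the 2 high-ratio arrays, without all 3 arrays and with the ratio as covariate. Leaving out single arrays gave 2 to 5 (both together), 1 to 5 (Sohlh1) and 0 to 3 (Sohlh2).

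Over all tested probe sets, the counts were 1000, 600 and 445. Array weights gave 1925, 1227 and 1075, the fits without the 2 high-ratio arrays 1566, 991 and 747, and the covariate 1532, 1230 and 789. eBayes without trend gave 343 (Sohlh1) and 293 (Sohlh2), the fit of compared groups alone 283 (Sohlh2), and the fit without all 3 arrays 767 (Sohlh2). Between the knockouts, 0 became 9 without the 2 arrays against their labels and 11 without all 3, with 0 members among them. Leaving out single arrays gave 430 to 1328, 230 to 1238 and 202 to 503. The cause of these changes was not tested.

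With the replicate block, members called were 3, 2 and 1 and all called 526, 338 and 98; reading 3-1 as 3, the Sohlh1 count was 2. Between groups, the deviations of arrays with the same number from their group means had correlations of -0.12 to 0.10. Arrays with different numbers were not compared in this way, nor was 3-1 paired with 3. Whether arrays of the same number share a batch was therefore not tested. On a few arrays per group, small changes of these genes could not be told from spread.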
